A study of Mus musculus with 32 samples.

Results

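The 10 genes of the erythroid and megakaryocyte transcription factor network followed here were Gata1, Gata2, Klf1, Zfpm1, Tal1, Lmo2, Nfe2, Gfi1b, Ldb1 and Fli1, measured in 8 fractions of mouse bone marrow at 2 ages. They were picked by symbol, all 10 are among the 24421 rows of the gene count table, and all 10 passed the filter on low counts that left 14154 genes for testing. The libraries came from female C57BL/6 mice without any genetic change or treatment, young at 10 weeks or aged at 20 months, and each of the 16 groups held 2 libraries, 32 in all. The fractions were hematopoietic stem cells (HSCs), multipotent progenitors MPP1, MPP2, MPP3 and MPP4, granulocyte-macrophage progenitors (GMPs), megakaryocyte-erythroid progenitors (MEPs) and common lymphoid progenitors (CLPs). Lineage-negative cells positive for Sca-1 and c-kit were divided by CD34, CD150, CD48 and Flt3 into HSCs and MPPs. GMPs and MEPs lacked Sca-1 and were parted by the Fc gamma receptor and CD34, and CLPs carried the IL-7 receptor with low Sca-1 and c-kit. The study pooled marrow of each age before sorting in duplicate, so p-values measure the spread between duplicate sorts, which may be technical, and not that between mice.

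Blood formation in the red cell and platelet lineages rests on a small set of factors that bind DNA together. GATA2 acts in stem cells and early progenitors and is replaced by GATA1 as erythroid and megakaryocytic cells mature. TAL1, LMO2 and LDB1 form the core of a complex that joins GATA factors at their target genes. FOG1, the product of Zfpm1, is a cofactor that binds GATA1 without touching DNA, and GFI1B is a repressor in both lineages. KLF1 drives red cell genes, FLI1 drives platelet genes, and NFE2 is needed for platelet release. KLF1 and FLI1 are known to oppose each other when bipotent progenitors choose between the lineages.

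Gene levels are given as CPM, counts scaled to a fixed library total, with library sizes corrected by the trimmed mean of M-values (TMM). Differences are log2 ratios with their SE, and a gene was called at an adjusted p under 0.01 in edgeR's quasi-likelihood test over all genes tested. Total counts ranged from 11237384 to 17723245 per library, and 3 counts corresponded to between 0.186 and 0.281 CPM. In young cells several transcripts of the sorting antigens followed the gates. Cd34 stood at 0.351 CPM in young MEPs and 1593 CPM in young MPP4, and Flt3 at 1063 CPM in young MPP4. Fcgr3 stood at 481 CPM in young GMPs and Il7r at 158 CPM in young CLPs. Other transcripts were less clear-cut, since the young MEP libraries held 13.4 CPM of Il7r against 0.309 CPM in aged MEPs. Ly6a, the gene of Sca-1, stood at 35.2 CPM in young and 214 CPM in aged CLPs, against 209 CPM in aged MPP4. In aged MEPs 5 of 8 antigen transcripts were called lower and 0 higher, with 20.8% of all genes called. Whether the gates held the same kinds of cells at both ages was not tested.

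The promoters of Gata1, Klf1 and Gfi1b are shown because these 3 genes were called lower together in aged MPP2, MPP3 and GMPs. Each window runs from 250 bases before to 50 bases after a RefSeq transcription start (GRCm38.p6), 5′ to 3′ on the strand of the gene. Capitals mark GATAA, letters found in sites of GATA factors, and CACCC, letters found in sites of KLF1, on either strand (TTATC and GGGTG on the other strand).
Gata1, chrX:7967861-7968160, minus strand: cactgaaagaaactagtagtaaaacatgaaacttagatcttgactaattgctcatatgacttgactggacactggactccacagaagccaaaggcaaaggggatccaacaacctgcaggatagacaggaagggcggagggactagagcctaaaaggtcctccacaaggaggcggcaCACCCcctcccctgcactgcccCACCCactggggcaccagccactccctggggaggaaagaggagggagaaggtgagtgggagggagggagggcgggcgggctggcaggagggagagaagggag
Klf1, chr8:84901732-84902031, plus strand: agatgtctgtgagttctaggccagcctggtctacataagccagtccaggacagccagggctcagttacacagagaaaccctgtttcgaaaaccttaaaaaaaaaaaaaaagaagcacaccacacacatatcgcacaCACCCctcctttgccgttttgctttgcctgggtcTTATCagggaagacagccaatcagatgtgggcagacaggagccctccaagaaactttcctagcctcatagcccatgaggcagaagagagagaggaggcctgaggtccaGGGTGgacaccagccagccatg
Gfi1b, chr2:28621933-28622232, minus strand: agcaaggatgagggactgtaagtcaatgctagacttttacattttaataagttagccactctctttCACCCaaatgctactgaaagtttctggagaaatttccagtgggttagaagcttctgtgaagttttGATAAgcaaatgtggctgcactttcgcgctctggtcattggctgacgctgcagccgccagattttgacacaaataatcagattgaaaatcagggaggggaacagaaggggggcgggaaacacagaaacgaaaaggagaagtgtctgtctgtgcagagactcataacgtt
The Gata1 window held CACCC at 2 positions, -74 and -52 from the start. In the Klf1 window GATAA lay at -80 on the opposite strand, with CACCC at -114 and on the opposite strand at 29. In the Gfi1b window GATAA lay at -119 and CACCC at -184. No matches shown here share a base with each other. Both motifs are common: 25.4% of 32851 RefSeq promoter windows of the same length held GATAA and 57.5% held CACCC on either strand. A match is a description of the letters and not a measured site. Windows were matched for 7 of the 10 genes, and Lmo2, Nfe2 and Fli1 had none. In the GRCm38 annotation (GENCODE M21) Gata1 spans positions 7959260 to 7978071 of chromosome X, Klf1 positions 84901928 to 84905291 of chromosome 8 and Gfi1b positions 28609450 to 28621982 of chromosome 2. Fli1 spans positions 32422204 to 32542861 of chromosome 9, Gata2 positions 88193891 to 88207032 of chromosome 6 and Lmo2 positions 103957986 to 103981878 of chromosome 2. Ldb1 alone shares exon bases with another gene, 177 bases with Pprc1 on the opposite strand, and no use of strand in counting is stated, so reads in those bases cannot be assigned to either gene.

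**Figure D1:**
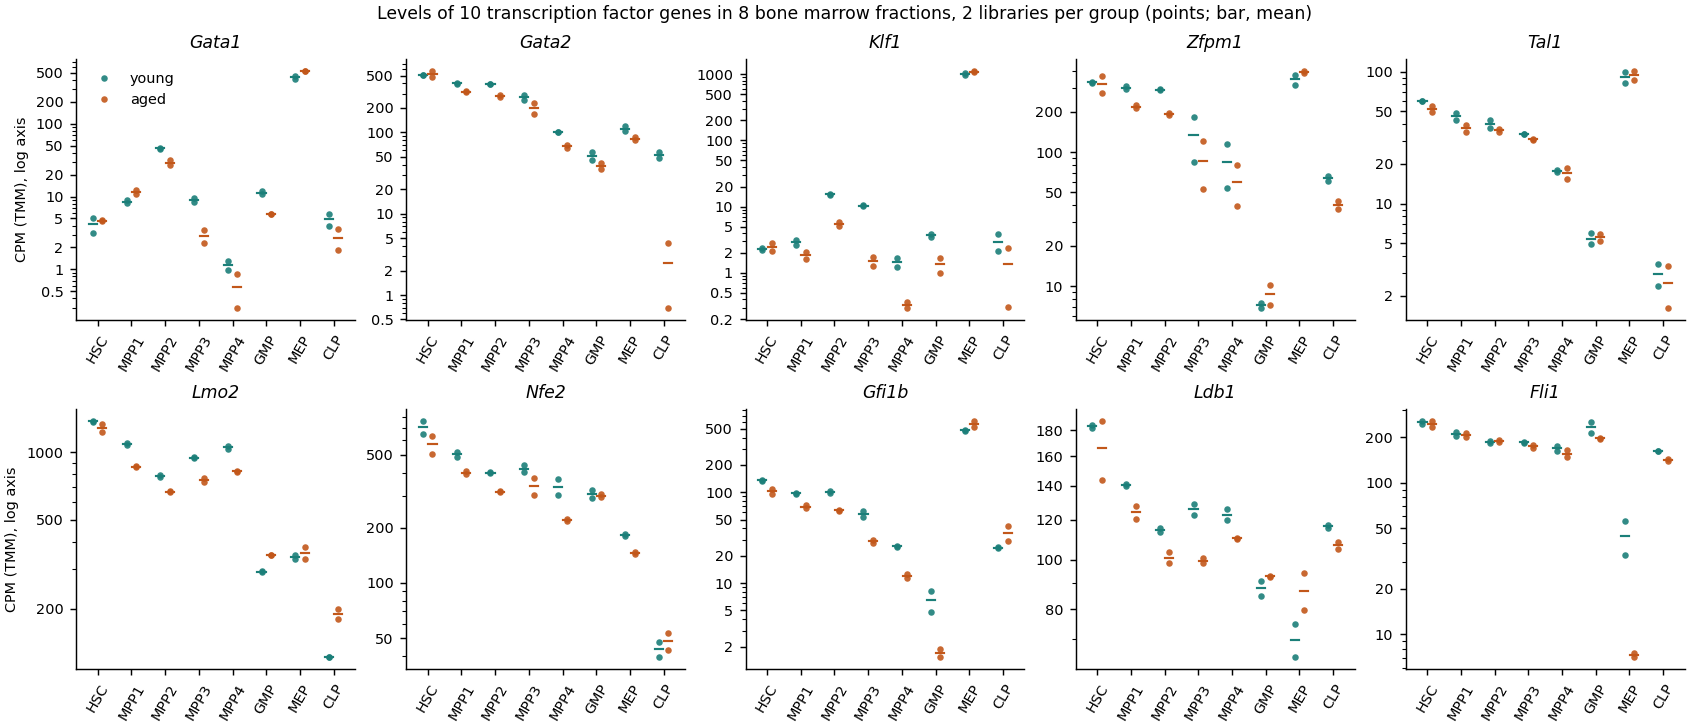
Level of each of the 10 genes in CPM (vertical log axis) in the 8 fractions (horizontal axis), with 1 point per library, a bar for the mean of 2 libraries, and colour for age. Klf1 and Gata1 peaked in MEPs at both ages, Fli1 was lowest there, and Gata2 was high in HSCs and lowest in aged CLPs.

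In young marrow the 10 genes followed different courses from HSCs to committed progenitors. Klf1 ran from 1.46 CPM in MPP4 to 1002 CPM in MEPs, a 688-fold range of group means, and Gata1 from 1.14 to 431 CPM, a 377-fold range. The 2 young MEP libraries held 1030 and 974 CPM of Klf1, while the highest of all other young libraries, an MPP2 library, held 15.5 CPM. MPP2 came second for both genes, at 45.8 CPM for Gata1 and 15.4 CPM for Klf1, and its duplicates did not overlap those of any other fraction. Gfi1b was also highest in MEPs, at 481 CPM, but HSCs came second with 135 CPM. Zfpm1 and Tal1 shared the order MEP, HSC, MPP1, MPP2, MPP3 and MPP4 before GMPs and CLPs. In Zfpm1 the duplicates of MEPs and HSCs overlapped, as did those of MPP3 and MPP4 and of MPP4 and CLPs. In Tal1 no neighbours overlapped.

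The remaining genes were highest in HSCs. Lmo2 fell into the order HSC, MPP1, MPP4, MPP3, MPP2, MEP, GMP and CLP, from 1375 to 121 CPM, with no overlap between neighbours. Nfe2 ranged from 709 CPM in HSCs to 43.4 CPM in CLPs, with overlaps between MPP3 and MPP2 and between MPP4 and GMPs. Gata2 ranged from 510 CPM in HSCs to 51.6 CPM in GMPs, and neither MPP1 and MPP2 nor CLPs and GMPs were separated by their duplicates. Fli1 was flat by comparison, with 7 of 8 young group means between 162 and 249 CPM, and MEPs apart at 44.7 CPM. Ldb1, the partner that holds the complex together, covered a 2.63-fold range. Per kilobase of exon, which allows genes to be compared, Klf1 led in young MEPs at 655 CPM per kilobase, followed by Gfi1b at 263 and Gata1 at 177, and Fli1 was last at 12.8. In young HSCs Lmo2 led at 635 CPM per kilobase, followed by Nfe2 at 237, and Gata1 and Klf1 were last at 1.70 and 1.48.

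These steps were tested in 6 comparisons of young fractions, and the 10 genes gave 34 calls in 60 tests. Between MEPs and MPP2, 9 of the 10 genes were called, 4 higher and 5 lower in MEPs, where 64.0% of all genes tested were called and the median of all genes lay at -0.24. Klf1 was 65.2-fold higher in MEPs (log2 6.03 ± 0.22, SE, adjusted p = 4.46e-16), Gata1 9.41-fold (3.23 ± 0.16), Gfi1b 4.77-fold (2.25 ± 0.14) and Tal1 2.26-fold (1.18 ± 0.15). Fli1 was 4.16-fold lower (log2 -2.06 ± 0.14), Gata2 3.54-fold lower (-1.82 ± 0.21), and Lmo2, Nfe2 and Ldb1 were lower by 2.29, 2.19 and 1.65 times. Zfpm1 differed by 0.25 ± 0.34 and was not called. Over 12 alternatives to the processing, none of these 9 calls was lost.

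Against GMPs, the sister progenitor, all 10 genes were called in young MEPs, with 50.5% of all genes called. Klf1 was 271-fold higher in MEPs (log2 8.08 ± 0.25, adjusted p = 2.35e-17), Gfi1b 74.7-fold (6.22 ± 0.18), Zfpm1 48.0-fold (5.59 ± 0.45), Gata1 38.2-fold (5.26 ± 0.18) and Tal1 16.7-fold (4.06 ± 0.18). Gata2 was 2.16-fold higher and Lmo2 1.16-fold higher. Fli1 was 5.21-fold lower (-2.38 ± 0.14), Nfe2 1.67-fold lower and Ldb1 1.27-fold lower in MEPs. The Ldb1 call was lost in 10 of 12 alternatives, DESeq2 among them (adjusted p up to 0.334), and that of Lmo2 when only the compared libraries were fitted (adjusted p = 0.0240).

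Within the multipotent cells MPP2 stood out by Gata1. Gata1 was 5.35-fold higher in young MPP2 than in MPP1 (log2 2.42 ± 0.18, adjusted p = 6.51e-09) and 5.09-fold higher than in MPP3 (2.35 ± 0.18, adjusted p = 4.17e-08). Klf1 was 5.30-fold higher in MPP2 than in MPP1 (2.41 ± 0.26), and 1.49-fold above MPP3 without a call (adjusted p = 0.190). Gfi1b was 1.74-fold higher in MPP2 than in MPP3 (0.80 ± 0.14), and Lmo2 was lower in MPP2 than in both, by 0.48 and 0.27 on the log2 scale. These were 3 of 10 genes called in each comparison, against 6.82% of all genes between MPP2 and MPP1 and 2.39% between MPP2 and MPP3. The Lmo2 call against MPP3 was lost without any 1 of the 4 libraries (adjusted p up to 0.0807), and that of Gfi1b without either MPP2 library or MPP3 replicate 1 (up to 0.0286). Against MPP1, 10 of 12 neutrophil granule, 10 of 12 macrophage and 6 of 11 basophil and mast cell markers were also called higher in MPP2. Against MPP3, 0 of the neutrophil granule and macrophage markers were called, and 6 of 11 basophil and mast cell markers were lower in MPP2. The part of these markers in the Gata1 differences was not tested.

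Between HSCs and MPP1, 4 of 10 genes were called, with 14.8% of all genes. Gata1 was 2.09-fold lower in HSCs (log2 -1.07 ± 0.22, adjusted p = 0.00132), and Nfe2, Ldb1 and Lmo2 were higher by 0.50 ± 0.12, 0.38 ± 0.09 and 0.33 ± 0.06. The Gata1 call was lost without HSC replicate 2 or MPP1 replicate 2 and with only the compared libraries fitted (adjusted p up to 0.0788). That of Nfe2 was lost without either MPP1 library or HSC replicate 2 (up to 0.0700), and that of Ldb1 without any 1 of the 4 libraries (up to 0.0472). That of Lmo2 was lost with offsets for GC content and length (up to 0.0323). Between CLPs and MPP4, 5 of 10 genes were called, with 41.8% of all genes. Lmo2 was 8.69-fold lower in CLPs (-3.12 ± 0.06), Nfe2 7.74-fold (-2.95 ± 0.14), Tal1 5.99-fold (-2.58 ± 0.21) and Gata2 1.91-fold (-0.93 ± 0.21), the last not called without CLP replicate 1 (adjusted p = 0.0129). Gata1 was 4.28-fold higher in CLPs (adjusted p = 9.10e-06), at 5.75 and 3.97 CPM against 0.990 and 1.29 CPM in MPP4. Markers of eosinophils, cells that use GATA1, summed to 637 and 624 CPM in young CLPs and to 6.68 and 8.22 CPM in young MPP4. Basophil and mast cell markers summed to 1783 and 1838 CPM against 22.5 and 25.1 CPM. Neutrophil granule markers summed to 2064 and 2127 CPM against 800 and 854 CPM. A list of 35 red cell genes summed to 3302 and 3416 CPM against 2016 and 2361 CPM. The part of these transcripts in the Gata1 difference was not tested.

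**Figure D2:**
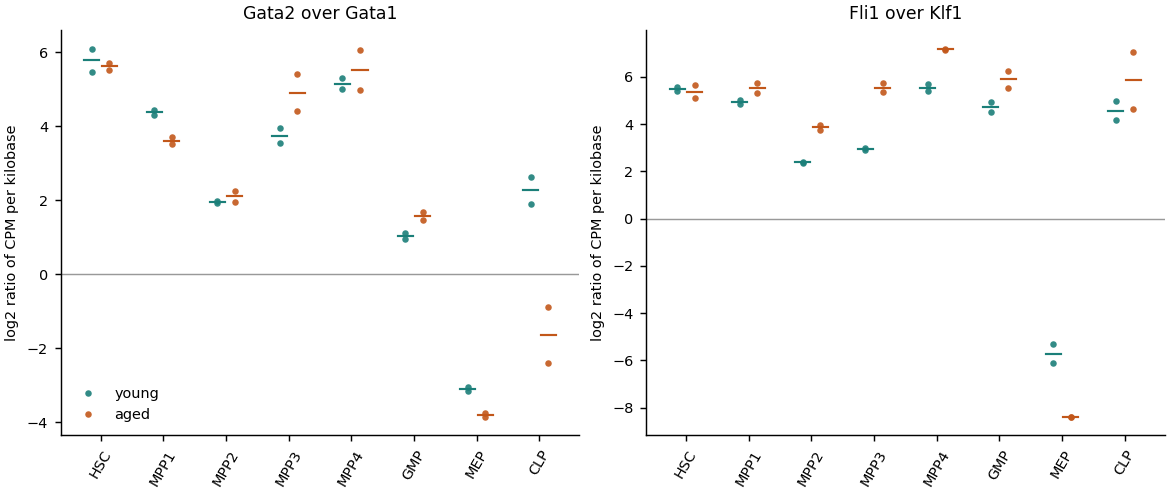
Ratio of Gata2 to Gata1 (left) and of Fli1 to Klf1 (right) on a log2 scale, from CPM per kilobase of exon, in each library of the 8 fractions, with bars for the mean of 2 libraries and colour for age. Both ratios were below 0 in the MEPs of both ages, and the ratio of Gata2 to Gata1 was also below 0 in aged CLPs.

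The ratios of opposed factors put these steps on 1 scale. The log2 ratio of Gata2 to Gata1, per kilobase of exon, was 5.78 ± 0.45 in young HSCs, 4.38 ± 0.10 in MPP1, 1.96 ± 0.04 in MPP2 and -3.09 ± 0.09 in MEPs. The log2 ratio of Fli1 to Klf1 was 5.51 ± 0.11 in young HSCs, 2.39 ± 0.03 in MPP2 and -5.71 ± 0.58 in MEPs. In aged MEPs the 2 ratios stood at -3.80 ± 0.08 and -8.39 ± 0.01, and in aged MPP3 the ratio of Fli1 to Klf1 stood at 5.55 ± 0.25 against 2.95 ± 0.03 in young MPP3 (SD, n = 2). The ratio of Gata2 to Gata1 in CLPs was 2.28 ± 0.52 in the young and -1.64 ± 1.07 in the aged. These ratios are descriptions and were not tested.

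Aging was compared within each fraction. Over 8 fractions the 10 genes gave 19 calls in 80 tests, 17 lower and 2 higher in aged cells. Over all genes tested in the same 8 comparisons, 12.6% of tests gave a call, 5.57% lower and 7.01% higher. Gfi1b and Lmo2 were called lower in 4 fractions each, Gata1 and Klf1 in 3, and Gata2, Nfe2 and Fli1 in 1. Lmo2 was also called higher in 2. For Tal1, Zfpm1 and Ldb1, edgeR gave 0 calls with age in 8 fractions each. DESeq2 called a further 9 cases that edgeR did not, 8 lower and 1 higher, and those in MPP1, MPP4 and CLPs are given with the values below. The others were Nfe2 and Ldb1 in MPP3 and Nfe2 in MEPs, all lower in aged cells. For Tal1 and Zfpm1 DESeq2 also gave 0, and 0 fractions had an unadjusted p under 0.05, while Ldb1 had 1 fraction higher and 1 lower at an unadjusted p under 0.05 and 1 lower by DESeq2. Zfpm1 stood at 309 and 296 CPM in young and 223 and 213 CPM in aged MPP1, and at 296 and 289 CPM against 190 and 196 CPM in MPP2, with no overlap. Its SE over all libraries was 0.34 in both, and its duplicates lay far apart in MPP3 and MPP4, at 184 and 85.0 CPM in young and 120 and 52.9 CPM in aged MPP3. In a fit to the compared libraries alone the difference of Zfpm1 was -0.47 ± 0.05 in MPP1 (adjusted p = 2.64e-04) and -0.60 ± 0.04 in MPP2 (adjusted p = 3.63e-05), both called.

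**Figure D3:**
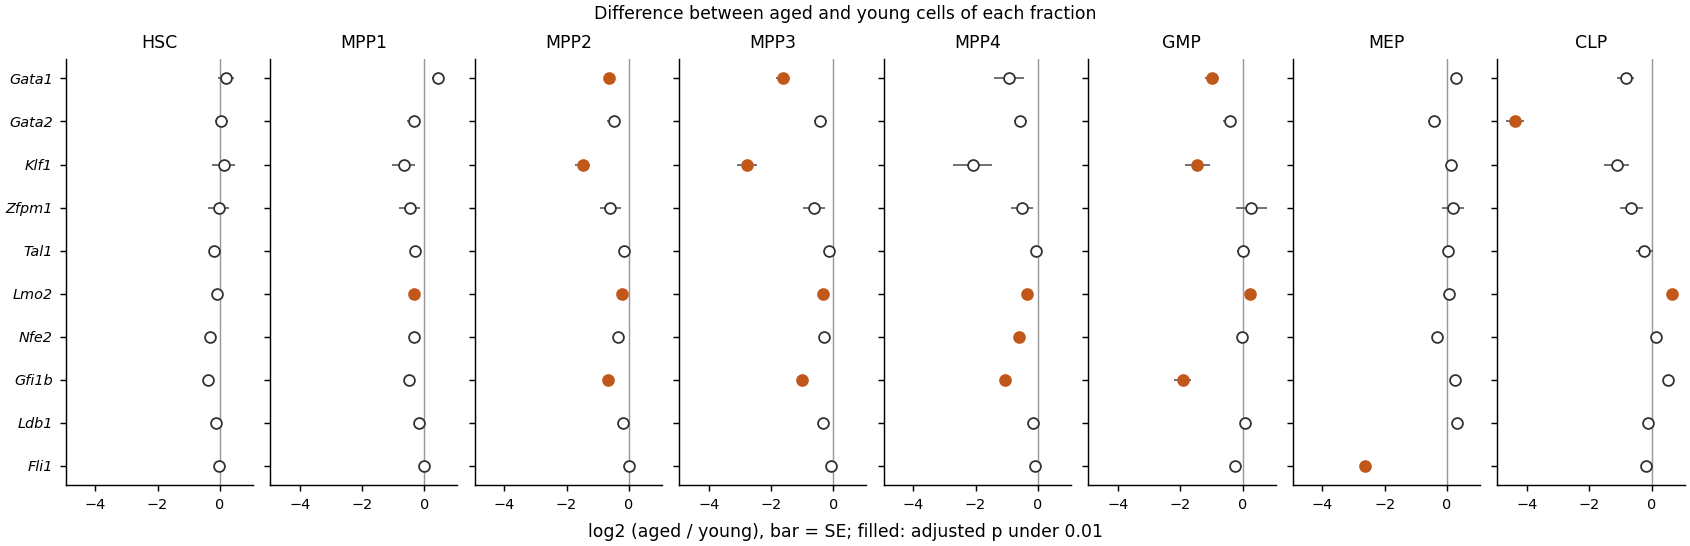
Log2 ratio of aged to young cells (horizontal axis, bars are SE) for the 10 genes (rows) in each of 8 fractions (panels), with filled points for an adjusted p under 0.01. Filled points lie to the left of 0 in 17 of 19 cases, and the farthest are Gata2 in CLPs at -4.38, Klf1 in MPP3 at -2.77 and Fli1 in MEPs at -2.62.

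The erythroid factors Gata1, Klf1 and Gfi1b were called lower together in MPP2 and MPP3, and also in GMPs, which are described below. In MPP2 the young libraries held 45.3 and 46.3 CPM of Gata1 and the aged 31.4 and 27.1 CPM. Klf1 stood at 15.2 and 15.5 CPM in young and 5.83 and 5.14 CPM in aged MPP2, and Gfi1b at 99.0 and 103 CPM against 62.8 and 64.5 CPM. No aged library reached the level of a young one in these 3 genes. Klf1 fell 2.80-fold (log2 -1.48 ± 0.24, adjusted p = 2.20e-04), Gfi1b 1.59-fold (-0.66 ± 0.14, adjusted p = 0.00247), Gata1 1.56-fold (-0.64 ± 0.16, adjusted p = 0.00788) and Lmo2 1.17-fold (-0.23 ± 0.06, adjusted p = 0.00844). These were 4 of 10 genes, with 7.81% of all genes called. The other 6 lay between -0.60 ± 0.34 for Zfpm1 and 0.01 ± 0.13 for Fli1. The calls of Gata1, Gfi1b and Lmo2 were lost without any 1 of the 4 MPP2 libraries, with adjusted p up to 0.129, 0.0360 and 0.0770, and that of Lmo2 also in thinned counts. That of Klf1 was kept in all 12 alternatives.

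The differences were larger in MPP3. Klf1 stood at 10.1 and 10.5 CPM in young MPP3, from 146 and 136 counts, and at 1.27 and 1.75 CPM in aged MPP3, from 19 and 24 counts. Gata1 stood at 9.65 and 8.29 CPM in the young and 3.48 and 2.33 CPM in the aged. Gfi1b stood at 53.5 and 62.4 CPM against 27.5 and 30.0 CPM. Young and aged libraries were again separate in each. Klf1 fell 6.84-fold (log2 -2.77 ± 0.31, adjusted p = 2.34e-06), Gata1 3.07-fold (-1.62 ± 0.24, adjusted p = 4.28e-05), Gfi1b 2.01-fold (-1.01 ± 0.15, adjusted p = 3.93e-05) and Lmo2 1.25-fold (-0.33 ± 0.06, adjusted p = 2.67e-04). These were 4 of 10 genes, with 13.9% of all genes called. The first 3 calls held in all 12 alternatives, and that of Lmo2 was lost when only the compared libraries were fitted (adjusted p = 0.0120). Libraries of sorted cells are bulk samples, in which fewer cells of a type and less RNA per cell cannot be told apart.

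Genes of the red cell program, a list of 36 of which 35 were tested, were also tested. In aged MPP2, 17 were lower and 1 was higher, with 7.81% of all genes called, and in aged MPP3, 19 were lower and 1 was higher, with 13.9% of all genes called. The median log2 difference of the list was -1.89 in MPP2 and -2.14 in MPP3, against -0.02 and -0.04 over all genes tested. In MPP2 the largest were Sptb, the red cell beta-spectrin, at 9.16 ± 0.505 CPM in young and 0.331 ± 0.0843 CPM in aged cells, the Rhesus protein gene Rhd at 10.2 against 0.634 CPM, Ermap with a log2 difference of -3.09 and the anion exchanger Slc4a1 at 49.2 against 6.67 CPM. In MPP3 they were Rhd (11.8 against 0.283 CPM), Sptb (8.77 against 0.201 CPM), Rhag (6.21 against 0.423 CPM) and Ermap (10.9 against 0.854 CPM). Tfrc, the transferrin receptor, was the gene that was higher in both, and is named because it was the exception. Of the 27 megakaryocyte genes tested, 5 were lower and 1 was higher in aged MPP2 and 10 were lower and 1 was higher in aged MPP3, with list medians of -0.62 and -0.64.

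Markers of other cells moved in the same fractions. Macrophage markers summed to 275 and 282 CPM in young MPP2 and to 76.1 and 79.8 CPM in aged MPP2, and to 221 and 227 CPM against 60.1 and 63.9 CPM in MPP3. Neutrophil granule markers summed to 4679 and 4941 CPM in young MPP3 and to 2289 and 2310 CPM in aged MPP3. In MPP2 they summed to 2638 and 2765 CPM in the young and 1922 and 1904 CPM in the aged. Markers of basophils and mast cells, which use GATA2, summed to 568 and 574 CPM in young and to 513 and 538 CPM in aged MPP3. In MPP2 these stood at 94.1 and 92.5 CPM against 58.8 and 60.4 CPM, with 3 of 11 called lower and 3 higher. Eosinophil markers, whose cells use GATA1, summed to 144 and 140 CPM in young and to 10.3 and 9.55 CPM in aged MPP3, with 4 of 9 called lower, and to 95.0 and 99.3 CPM against 77.6 and 81.7 CPM in MPP2. Their part in the differences of the erythroid factors was not tested.

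**Figure D4:**
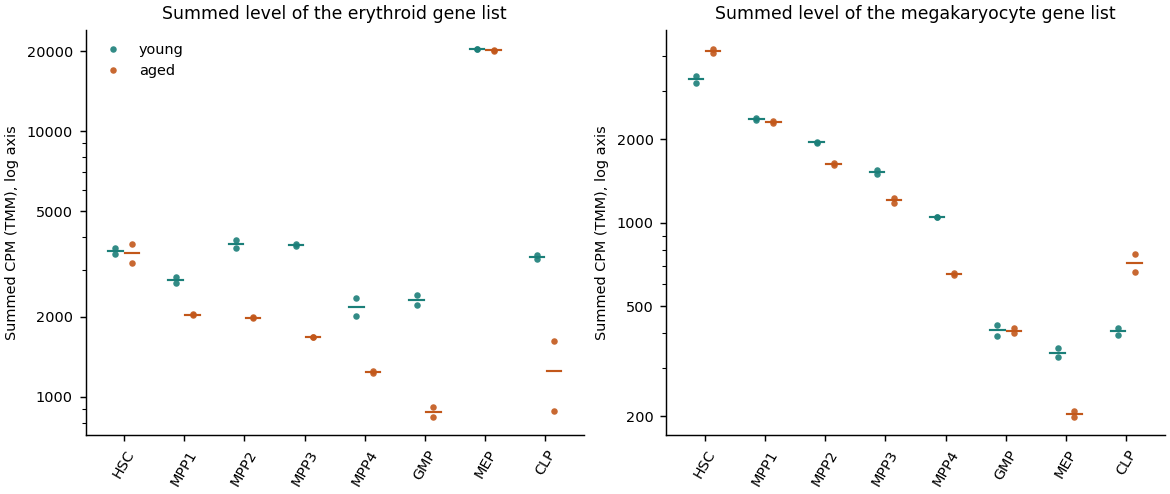
Summed CPM (vertical log axis) of the erythroid gene list (left) and the megakaryocyte gene list (right) in each library of the 8 fractions, with bars for the mean of 2 libraries and colour for age. For the erythroid list, aged MPP2 libraries sat at 1995 and 1983 CPM and aged MPP3 libraries at 1686 and 1688 CPM, below the young ones, and for the megakaryocyte list aged CLPs lay above young CLPs for the megakaryocyte list.

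In aged MPP4 3 genes were called lower. Gfi1b fell from 25.4 and 25.2 CPM to 11.5 and 12.6 CPM (log2 -1.07 ± 0.16, adjusted p = 4.66e-05). Nfe2 fell from 301 and 371 CPM to 219 and 225 CPM (-0.60 ± 0.12, adjusted p = 9.86e-04), and Lmo2 from 1041 and 1069 CPM to 825 and 819 CPM (-0.36 ± 0.06, adjusted p = 7.81e-05). All young libraries lay above all aged ones for the 3 genes. These were 3 of 10 genes, with 16.6% of all genes called, and the Nfe2 call was lost without aged replicate 1 or young replicate 2 (adjusted p up to 0.0227). Klf1 had 20 and 22 counts in young and 4 and 5 in aged MPP4 (-2.09 ± 0.62, adjusted p = 0.0155), and was not called by edgeR but was by DESeq2 (adjusted p = 3.47e-04), as was Gata2 (edgeR adjusted p = 0.0475, DESeq2 0.00817). Of the erythroid list 6 of 35 genes were lower and 2 higher in aged MPP4, and of the megakaryocyte list 8 of 27 were lower and 1 higher. Macrophage markers summed to 113 and 130 CPM in young and 34.0 and 34.3 CPM in aged MPP4, with 9 of 12 called lower, and their part in the differences was not tested. In MPP1 Lmo2 was the 1 gene of 10 called by edgeR, with 6.80% of all genes. It fell from 1083 and 1103 CPM to 867 and 857 CPM (-0.34 ± 0.06, adjusted p = 3.41e-04). DESeq2 also called Gfi1b lower there (edgeR -0.48 ± 0.14, adjusted p = 0.0239, DESeq2 0.00119). The others lay between -0.66 ± 0.36 for Klf1 and 0.43 ± 0.19 for Gata1. Gata1 stood at 8.24 and 8.85 CPM in young and 10.9 and 12.1 CPM in aged MPP1 (adjusted p = 0.159). The 4 calls of Lmo2 in MPPs were all small, between 1.17- and 1.28-fold.

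In HSCs edgeR called 0 of the 10 genes with age, with 5.40% of all genes called. DESeq2 also called 0, and 2 genes had an unadjusted p under 0.05, both lower in aged HSCs. Gfi1b stood at 134 and 135 CPM in young and 96.3 and 108 CPM in aged HSCs (log2 -0.40 ± 0.14, adjusted p = 0.0665), and Nfe2 differed by -0.32 ± 0.12 (adjusted p = 0.106). The other 8 lay between -0.20 ± 0.15 for Tal1 and 0.20 ± 0.25 for Gata1. In the megakaryocyte gene list, by contrast, edgeR called 6 of 27 genes tested higher and 0 lower in aged HSCs. DESeq2 called 5 higher and 2 lower. Selp, coding for P-selectin, stood at 36.3 ± 3.66 CPM in young and 435 ± 10.1 CPM in aged HSCs, the platelet protein gene Plek at 14.9 against 87.7 CPM, Sdpr at 35.1 against 132 CPM and the integrin subunit Itgb3 at 40.7 against 97.0 CPM. Of markers of other cells, 7 of 12 neutrophil granule and 4 of 11 basophil and mast cell markers were called higher in aged HSCs. Of 12 macrophage markers, 4 were called lower. Neutrophil granule markers summed to 279 and 306 CPM in young and 655 and 850 CPM in aged HSCs. The part of these markers in the differences was not tested.

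In GMPs, where the erythroid factors were low at both ages, 3 of the 10 genes were called lower and 1 higher, with 18.9% of all genes called. Gfi1b fell from 8.12 and 4.77 CPM to 1.52 and 1.87 CPM (log2 -1.92 ± 0.27, adjusted p = 1.82e-05). Gata1 fell from 10.8 and 11.7 CPM to 5.73 and 5.70 CPM (-0.98 ± 0.21, adjusted p = 0.00154), and Klf1 from 3.92 and 3.46 CPM to 1.70 and 0.979 CPM (-1.45 ± 0.40, adjusted p = 0.00826). Lmo2 rose from 294 and 293 CPM to 350 and 347 CPM (0.25 ± 0.06, adjusted p = 0.00278). Of these, Klf1 rested on 55 and 50 counts against 19 and 11. Its call was lost without any 1 of the 4 GMP libraries, with only the compared libraries fitted and in thinned counts (adjusted p up to 0.110). With only the compared libraries fitted, the other 3 calls were lost too. That of Gata1 was also lost without aged replicate 1, aged replicate 2 or young replicate 2 (up to 0.0212), and that of Lmo2 without aged replicate 1 or either young library (up to 0.0248), while that of Gfi1b reached an adjusted p of 0.0174. Of 35 erythroid genes, 11 were called lower in aged GMPs, among them Alas2, the first enzyme of heme synthesis, at 33.1 against 1.43 CPM, Hba-a1 at 144 against 2.46 CPM, Hbb-b2 at 269 against 18.5 CPM and Hbb-b1 at 376 against 27.4 CPM. The globin genes are near-identical copies, and reads may be split between them. Eosinophil markers summed to 1731 and 1634 CPM in young and 3251 and 4649 CPM in aged GMPs. Basophil and mast cell markers summed to 1141 and 1115 CPM against 772 and 799 CPM. Of 12 macrophage markers, 7 were called lower and 5 were at 0 in both aged GMP libraries, with sums of 240 and 261 CPM in young and 161 and 198 CPM in aged GMPs. The part of these markers in the differences was not tested.

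In MEPs the erythroid factors were not called with age. Gata1 stood at 417 and 445 CPM in young and 529 and 527 CPM in aged MEPs, and Klf1 at 1030 and 974 CPM against 1119 and 1065 CPM. Neither was called, with differences of 0.29 ± 0.14 (adjusted p = 0.125) and 0.12 ± 0.17 (adjusted p = 0.648). Of 35 erythroid genes, edgeR called 3 lower and 1 higher, with 20.8% of all genes called. The former were Slc4a1, Tfrc and E2f2 and the latter Blvrb. DESeq2 called 6 lower and 3 higher. At an unadjusted p under 0.05 in edgeR, 11 were lower and 7 higher. The list summed to 20474 and 20365 CPM in young and 20309 and 20114 CPM in aged MEPs.

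Fli1 was the 1 gene of 10 called by edgeR in MEPs, with 20.8% of all genes called. The young libraries held 33.5 and 55.9 CPM, from 524 and 779 counts, and the aged 7.50 and 7.06 CPM, from 80 and 82 counts. The aged level was below the lower of the 2 young libraries, which themselves differed 1.67-fold. Fli1 fell 6.13-fold (log2 -2.62 ± 0.17, adjusted p = 1.45e-10), and over 12 alternatives the difference lay between -2.97 and -2.25 and kept its call. Fli1 was not called with age in any of the other 7 fractions, where differences lay between -0.25 ± 0.13 and 0.01 ± 0.13.

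Platelet genes were lower in aged MEPs as well. Of 27 megakaryocyte genes tested, 11 were called lower, with 20.8% of all genes called, and the median of the list was -1.16 against 0.00 over all genes. The largest were Plek, at 35.2 CPM in young and 6.56 CPM in aged MEPs, Nbeal2, needed for platelet alpha granules, at 7.57 against 1.39 CPM, Ptgs1 at 5.83 against 1.48 CPM and Mmrn1 at 10.9 against 3.06 CPM. Of the factors that work with the 10 genes, a list of 35, 7 were called lower and 8 higher in aged MEPs, against the same 20.8% of all genes. They included Spi1, the myeloid and B cell factor PU.1, at 15.1 against 3.40 CPM, Cbfb at 73.2 against 17.2 CPM and Lmo4 at 6.55 against 2.89 CPM, all lower, and Rcor1, a corepressor partner of GFI1B, at 116 against 196 CPM.

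Transcripts of other lineages were also found in the young MEP libraries. B lineage markers summed to 256 and 248 CPM in young and to 2.44 and 3.18 CPM in aged MEPs. Cd79a had 836 and 801 counts in the young and 0 in both aged libraries, and Vpreb1 had 505 and 362 counts against 4 and 5. Of 12 macrophage markers, 6 were called lower in aged MEPs and 0 higher, with a list median of -6.28. Of the same 12, 7 were at 0 in both aged MEP libraries and 1 in both young ones, while the list sums stayed between 187 and 235 CPM. The part of these transcripts in the Fli1 difference was not tested.

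**Figure D5:**
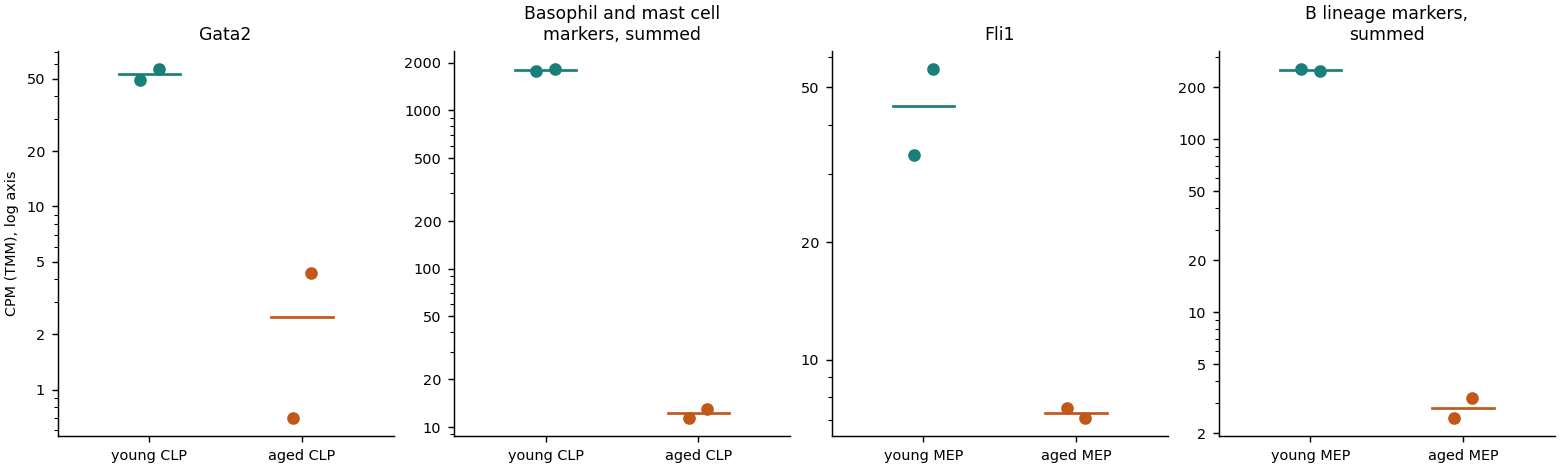
From left to right, Gata2 in CLPs, the summed basophil and mast cell markers in CLPs, Fli1 in MEPs and the summed B lineage markers in MEPs, in CPM on log axes, with 1 point per library and a bar for the mean. In each panel both aged libraries lie below both young ones, Gata2 at 0.695 and 4.31 against 48.9 and 56.7 CPM and Fli1 at 7.50 and 7.06 against 33.5 and 55.9 CPM.

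In CLPs the difference was in Gata2. The young libraries held 48.9 and 56.7 CPM, from 595 and 700 counts, and the aged 0.695 and 4.31 CPM, from 9 and 58 counts. Gata2 fell by 4.38 on the log2 scale (± 0.30, adjusted p = 1.48e-09). The aged duplicates differed 6.20-fold, and leaving out libraries moved the difference between -6.24 and -3.61, the former without aged replicate 2 and the latter without aged replicate 1. The call was lost only in the fit to the 4 CLP libraries (adjusted p = 0.0147). Lmo2 rose from 121 CPM in both young libraries to 200 and 180 CPM (0.65 ± 0.06, adjusted p = 1.09e-07), with its call also lost in the fit to the 4 libraries (0.0167). These were 2 of 10 genes by edgeR, with 10.4% of all genes called, and DESeq2 called 5. Gfi1b stood at 25.1 and 24.1 CPM in young and 29.3 and 42.2 CPM in aged CLPs and was not called by edgeR (0.54 ± 0.15, adjusted p = 0.0157) but was by DESeq2 (adjusted p = 8.00e-04).

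Basophil and mast cell markers went the same way as Gata2, a factor that these cells require. The list of 12 summed to 1783 and 1838 CPM in young and to 11.4 and 13.1 CPM in aged CLPs. Prss34, a basophil protease, had 15610 and 16148 counts in the young and 0 in both aged libraries, Mcpt8 3390 and 3599 counts against 10 and 31, Cpa3 1199 and 1307 counts against 89 and 121, and Ms4a2 289 and 334 counts against 0 and 10. Gata1 and Klf1, at or under 5.75 CPM in all 4 libraries, were not called by edgeR (-0.83 ± 0.27 and -1.12 ± 0.41, adjusted p = 0.0353 and 0.0579) but were called lower by DESeq2 (0.00336 and 0.00195). Markers of other cells were lower as well, with 10.4% of all genes called. In aged CLPs 10 of 12 macrophage, 11 of 12 neutrophil granule and 4 of 9 eosinophil markers were called lower. Of 11 B lineage markers, a list whose sum was highest in CLPs of all fractions, 8 were called lower. They summed to 3404 and 3450 CPM in young and 1858 and 1788 CPM in aged CLPs. The macrophage list summed to 277 and 299 CPM in young and 30.1 and 34.0 CPM in aged CLPs, and the neutrophil list to 2064 and 2127 CPM against 388 and 390 CPM. The part of all these markers in the differences of Gata2 and of the erythroid list was not tested.

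Megakaryocyte genes were higher in aged CLPs. Of 27 tested, 14 were called higher, with 10.4% of all genes called, and the list median was 2.37 against 0.00 over all genes. Vwf, the von Willebrand factor gene, stood at 0.123 ± 0.174 CPM in young and 22.4 ± 10.1 CPM in aged CLPs and Ppbp at 0.897 against 23.1 ± 11.3 CPM. Treml1 had no count in the young libraries and 8.02 ± 6.32 CPM in the aged. The SDs show that the aged duplicates lay far apart. In the same libraries Ly6a stood at 35.2 CPM in young and 214 CPM in aged CLPs, and Cd34 at 276 against 375 CPM. Whether the mix of cells differed between young and aged CLPs was not tested. Its part in the higher levels of megakaryocyte genes, Lmo2 and Gfi1b was not tested either. Of 35 erythroid genes, 9 were called lower, led by Hbb-b2 at 431 against 89.2 CPM, Alas2 at 53.8 against 11.3 CPM and Hbb-b1 at 623 against 131 CPM.

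Whether the age differences themselves differed between fractions was tested against the mean age difference of the 4 MPP fractions. These tests reuse the libraries above. In MEPs 6 of the 10 genes were called, with 24.8% of all genes. Klf1 (1.88 ± 0.27, adjusted p = 1.18e-05), Gfi1b (1.05 ± 0.15), Gata1 (0.99 ± 0.21), Ldb1 (0.54 ± 0.11) and Lmo2 (0.38 ± 0.06) were higher than the MPP mean, and Fli1 was lower (-2.57 ± 0.18, adjusted p = 7.26e-10). The Ldb1 call was lost without aged or young MEP replicate 1 and with offsets for GC content and length (adjusted p up to 0.0196). In CLPs 4 were called, with 22.6% of all genes, Gata2 lower (-3.92 ± 0.32) and Gfi1b (1.35 ± 0.17), Lmo2 (0.96 ± 0.07) and Nfe2 (0.55 ± 0.15) higher. The Nfe2 call was lost without aged or young CLP replicate 2 or young MPP3 replicate 2 (up to 0.102).

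In GMPs 2 were called, with 26.6% of all genes, Lmo2 higher (0.56 ± 0.06) and Gfi1b lower (-1.11 ± 0.29). The Gfi1b call was lost without either aged GMP library or young GMP replicate 1 and in thinned counts (adjusted p up to 0.0803). In HSCs Klf1 was called higher than the MPP mean (1.88 ± 0.43, adjusted p = 0.00842), with 3.01% of all genes, but the call was lost without any 1 of the 20 HSC and MPP libraries and in thinned counts (up to 0.0668), and Klf1 had 27 and 36 counts in young and 27 and 42 in aged HSCs. Between MPP2 and MPP4 edgeR called 0 of 10 genes, as did DESeq2, and 0 had an unadjusted p under 0.05, with 0.177% of all genes called.

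Of the 35 factors that act with the 10 genes, 2 were lower in aged MPP1, with 6.80% of all genes called, 5 in MPP2, with 7.81%, and 5 in MPP4, where 2 were higher, with 16.6%. Cbfa2t3, coding for the corepressor ETO2 of the TAL1 complex, fell in all 4 MPP fractions, by 0.74, 0.97, 0.96 and 0.70 on the log2 scale from MPP1 to MPP4. Mafk, whose product pairs with NFE2, was also called lower in all 4, for example at 186 CPM in young against 103 CPM in aged MPP4. In aged GMPs, by contrast, both were called higher, which was looked up after the values in MPPs were seen. Runx1 was called lower in MPP2 and MPP3, the latter call read after its values were seen. In MPP3 10 of the 35 were lower and 1 higher, with 13.9% of all genes called, and in GMPs 2 were lower and 11 higher, with 18.9%, among the latter Lyl1, a relative of TAL1, at 5.01 against 13.2 CPM and the ETS factor Erg at 9.12 against 21.6 CPM.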

How the data were processed

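RNA of sorted marrow fractions was amplified with the SMARTer Ultra Low input chemistry and sequenced. The authors aligned reads to mm10 with TopHat2 (2.0.13) and Bowtie2 (2.1.0) and made gene counts with StringTie, per the labels, and the deposited count table holds whole, unnormalized counts per gene. Whether counting used strand is not given in the sources used here. The deposited normalized table (32 columns) and the authors' tables of fold changes and p-values were not used.

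Counts were fitted in edgeR (4.0.16, R 4.3.3, limma 3.58.1) by the quasi-likelihood F-test with TMM scaling and filterByExpr, which kept 14154 of 24421 genes, with 1 mean for each of 16 groups of 2 libraries and 16 residual degrees of freedom. The 19 comparisons were adjusted by Benjamini-Hochberg within each over all genes tested, and calls were made at 0.01. The duplicates of every group differed beyond sampling noise and were kept as 2 libraries. Total counts of 11237384 to 17723245 limit the precision of low genes, and the floor of 3 counts covers counting error only.

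The 10 genes and the gene lists were chosen with earlier results of these data known. All 10 genes are named. Of each other list, up to 4 called genes of a comparison with the largest log2 difference and a mean of at least 5 CPM in a group are named, and exceptions are marked. In 1 of these lists a single gene that the rule would add is not reported here. Alternatives were DESeq2 (1.42.0), its size factors, no filter, thinned counts, GC and length offsets, a replicate block, only the compared libraries, a threshold of 0.05, a prior count of 0.5, plain library totals and each library left out. Gene positions came from GENCODE M21 on GRCm38.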

Additional observations from a re-analysis of the deposited data

Results flagged for a closer look

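The differences between age effects in different fractions that passed the test of the difference itself are collected here, each as the log2 age difference of a fraction minus the mean age difference of MPP1 to MPP4, by edgeR's quasi-likelihood test. The tests share the MPP libraries, so they are not independent of each other. In MEPs the difference was 1.88 for Klf1, 1.05 for Gfi1b, 0.99 for Gata1, 0.54 for Ldb1, 0.38 for Lmo2 and -2.57 for Fli1. In CLPs it was -3.92 for Gata2, 1.35 for Gfi1b, 0.96 for Lmo2 and 0.55 for Nfe2. In GMPs it was 0.56 for Lmo2 and -1.11 for Gfi1b. In HSCs it was 1.88 for Klf1. Of these 13, 9 kept their call in every alternative run.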

How the results depend on the processing

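No call of the 10 genes changed direction in any alternative run. Of 19 calls with age, 8 kept their side of the threshold in all 12 alternatives, as did 25 of 34 between young fractions, and 9 of 13 differences of age effects did so in 28. With 1 library left out, the lone duplicate was assumed to vary like the other groups. At an adjusted p under 0.05, the 2 calls of the 10 genes higher with age became 4, erythroid genes higher went from 9 to 17, megakaryocyte genes lower from 35 to 53, partner factors lower from 37 to 63, and calls over all genes and fractions from 14246 to 24098. DESeq2's test gave 14 erythroid genes higher and 64 partner factors lower. With only the compared libraries fitted, 0 of the 10 genes were called higher with age and partner factors higher went from 26 to 11. The fit holds 2 residual degrees of freedom for an age comparison there. Leaving out 1 library moved the genes of the 10 called higher between 1 and 3, the lowest without aged GMP replicate 1, and partner factors higher between 14 and 27, with 14 without aged GMP replicate 1 and 17 without young GMP replicate 1. Same-numbered duplicates of the 2 ages, compared within each fraction, did not deviate together (r between -0.056 and 0.070 over genes). The replicate numbers were not taken as pairs in the main fit. Marrow of each age was pooled on its own, so this check cannot show whether same-numbered duplicates of different fractions of 1 age belong together. That was not tested, and 37 genes, Zfpm1 among them, were higher in replicate 1 in MPP3 and MPP4 of both ages. With the replicate block the counts for the 10 genes were 2 higher and 17 lower with age, 34 between young fractions and 13 for differences, and no call was lost. Causes of these changes were not tested. Genes near 3 counts, such as Klf1 in aged MPP4, are limited by depth.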

Other observations

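Candidates were the 9773 genes whose highest group mean reached 20 CPM, and those most like each of the 10 genes over the 16 group means of log2 CPM were described by Pearson's r, with no test, since the groups share fractions and libraries. Klf1 was most like Atp1b2 (r = 0.977) and Kel (r = 0.975), the latter coding for the Kell blood group protein. Tal1 was most like Vamp5 (r = 0.994) and Tom1l1 (r = 0.989), and Nfe2 was most like Tspan32 (r = 0.994) and Galm (r = 0.991). Fli1 was most like Plcb2 (r = 0.984) and Eif4e3 (r = 0.983), and Gata1 was most like P2ry1 (r = 0.947), a platelet ADP receptor gene, and Mylk3 (r = 0.937). Gata2 was most like Wdfy3 (r = 0.919) and the transcription factor gene Sox6 (r = 0.914). Zfpm1 and Gfi1b shared Tmem64 among their likest genes (r = 0.967 and 0.959), beside Nckap1 (r = 0.975) for Zfpm1 and Myh10 (r = 0.969) for Gfi1b. Lmo2 was most like Smyd3 (r = 0.962) and Rab38 (r = 0.955), and Ldb1 most like Pik3r1 (r = 0.962) and Map1lc3a (r = 0.955). Between members, r was 0.943 for Gata1 and Klf1 and -0.83 for Klf1 and Fli1.

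The duplicates of Zfpm1 lay far apart in MPP3 and MPP4 and nowhere else by as much. Replicates 1 and 2 stood at 184 and 85.0 CPM in young MPP3, at 120 and 52.9 CPM in aged MPP3, at 114 and 53.9 CPM in young MPP4 and at 79.6 and 39.8 CPM in aged MPP4. Of 7296 genes whose mean reached 20 CPM in each of these 4 groups, 37 were at least 1.5 times higher in replicate 1 in all 4, Cul3 and Fam120a among them, and 0 were so in replicate 2. This pattern was found after the values were seen, and its cause was not tested.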
